A study of Rattus norvegicus with 9 samples.

Results

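The 82 genes described here encode proteins of the cytosolic ribosome, the particle that translates messenger RNA outside mitochondria. They were taken from a table of 32623 gene rows by symbol: Rpl or Rps followed by a number and at most a short suffix, together with Rpsa and the stalk genes Rplp0, Rplp1 and Rplp2. For each symbol the row with the highest mean FPKM, a measure of transcript level scaled for gene length and depth, over 9 libraries was kept, and a mean of at least 1 FPKM was required. The rule used the mean level over all libraries and no difference between groups. In all, 93 rows carried 84 such symbols, and 2 symbols fell under the minimum, Rpl10l with a mean of 0.797 FPKM and Rpl30l1 with 0.493 FPKM. Of the 82 genes, 49 encode large-subunit and 33 encode small-subunit proteins, and 13886 rows of the table passed the same minimum and were tested.

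The libraries were made from poly(A) RNA of femora of Sprague-Dawley rats, all labelled as wild type, with 3 libraries in each of 3 groups. The treated group received Desertliving Cistanche herb, a parasitic desert plant used in Chinese medicine. Its labels name the herb alone, while the title of the series speaks of the herb in rats that had been ovariectomized. The second group was ovariectomized, a loss of ovarian hormones that is used as a model of postmenopausal osteoporosis, and the third group consisted of control rats that the series calls normal. The labels give no dose, duration, age or sham operation, and they do not say that libraries came from separate animals, so p-values measure the spread between these libraries. Libraries held 54992823 to 66531156 counts. Summed bone matrix markers ranged from 2659 to 8544 CPM, which are counts scaled to library size, in the treated and ovariectomized libraries and from 4931 to 9186 CPM in the control libraries, and overlapped. Summed markers of red cell precursors, which are cells of the marrow, ranged from 68139 to 86361 CPM in treated, from 83214 to 98030 CPM in ovariectomized and from 101316 to 164903 CPM in control libraries, so that all control libraries lay above all others. Summed markers of adipocytes, the fat cells of the marrow, ranged from 1421 to 2416 CPM in treated, from 1363 to 2023 CPM in ovariectomized and from 484 to 1118 CPM in control libraries, which all lay below the others. The part of these cell types in the comparisons with control femora was not tested. In bulk RNA, fewer cells of a type and less RNA per cell cannot be told apart.

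Each ribosome carries 1 copy of nearly every ribosomal protein, and cells make the proteins in matched amounts. Their messenger RNAs are among the most abundant in growing cells and begin with a 5′ terminal oligopyrimidine (TOP) motif, a C at the cap followed by a run of C and T, through which mTOR and LARP1 set how strongly they are translated. In bone marrow, where red cell precursors make large amounts of haemoglobin, loss of 1 copy of several of these genes causes Diamond-Blackfan anaemia in humans, and in mice mutations of Rpl38 and Rpl29 alter the skeleton. Mammalian genomes also hold many intronless copies of ribosomal protein genes, whose sequences can be nearly identical to the parent transcript.

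The TOP motif is shown first because it is the sequence feature the genes have in common. RefSeq promoter entries (assembly GRCr8) matched 63 of the 82 genes by symbol. The motif was searched for as a C followed by 4 letters that are each C or T, on the strand of the gene. It began exactly at an annotated start in 21 of the 63 genes (33.3%), against 3.11% of all 27457 symbols with an entry. Within 5 bases before to 10 bases after the start it was found in 38 genes (60.3%), against 19.0% of all symbols. The windows below run from 10 bases before to 20 bases from the start, 30 bases in all, and capitals mark the pyrimidine run that holds the motif. The first 6 genes were chosen as examples with the motif at the start, at high and steady levels.
Rpl10 (chrX:157205840-157205869, plus strand): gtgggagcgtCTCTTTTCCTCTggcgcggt
Rpl28 (chr1:78083513-78083542, minus strand): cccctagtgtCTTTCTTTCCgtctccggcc
Rpl31 (chr9:49143101-49143130, plus strand): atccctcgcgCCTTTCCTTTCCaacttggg
Rpl37a (chr9:81748081-81748110, plus strand): cccgttgcgtCTCTTCCTCTTCgggcttgg
Rplp1 (chr8:71290853-71290882, minus strand): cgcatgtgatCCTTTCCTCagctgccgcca
Rps7 (chr6:50999426-50999455, minus strand): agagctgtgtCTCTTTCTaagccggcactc
The next 3 windows belong to the paralogs Rpl3l, Rpl22l1 and Rps27l, whose levels are described further on. None holds such a run beginning in the range searched, and in Rpl3l a run begins directly after that range.
Rpl3l (chr10:14258436-14258465, plus strand): ctggtgcctggtggggaggtcccttcctaa
Rpl22l1 (chr2:113683186-113683215, plus strand): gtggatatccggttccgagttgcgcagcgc
Rps27l (chr8:76443648-76443677, plus strand): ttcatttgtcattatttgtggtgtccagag
The last 2 windows belong to Rpl38 and Rpl39, the large-subunit genes with the lowest fitted fold changes in treated against ovariectomized femora.
Rpl38 (chr10:100200425-100200454, plus strand): ttctttttccgttgttcggtgctcgctcct
Rpl39 (chrX:121195877-121195906, minus strand): taatcgcgttCTTCCggcctgtcctttctc
RefSeq places these 2 genes on chromosomes 10 and X, whereas the rows named Rpl38 and Rpl39 in the deposited table lie on chromosomes 8 and 14. A match or its lack describes these letters around the annotated start and says nothing of the factor.

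Ribosomal protein genes were among the most abundant transcripts of the femur. Their median level was 471 FPKM, against a median of 10.2 FPKM for the 13886 tested genes. Of the 82 genes, 70 averaged at least 100 FPKM and 7 at least 1000 FPKM, whereas 701 and 54 of all tested genes did. Rpl41, a short basic peptide of the large subunit, was the highest, with 1822 ± 88.1 FPKM in treated, 1772 ± 185 FPKM in ovariectomized and 1862 ± 145 FPKM in control femora (SD, n = 3 each). It was followed by Rplp1, an acidic protein of the stalk that recruits translation factors, with 1622 ± 188, 1522 ± 78.4 and 1484 ± 97.3 FPKM in treated, ovariectomized and control femora. Rplp0, the base of the same stalk, had 1499 ± 45.5, 1439 ± 29.03 and 1433 ± 141 FPKM in the same order of groups. The small-subunit protein Rpsa, also known as a laminin receptor, had 1290 ± 33.5, 1245 ± 56.7 and 1245 ± 109 FPKM. For each of these 4 genes the group means differed from each other by less than the largest SD of its groups.

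The lowest genes were paralogs and rows for variant loci. Rpl39l, a paralog of Rpl39 that is known for its role in the testis, had 0.862 ± 0.0494 FPKM in treated, 1.09 ± 0.423 FPKM in ovariectomized and 1.22 ± 0.592 FPKM in control femora, so it passed the minimum through the ovariectomized and control libraries. Rps4y2 averaged 4.78 FPKM, Rps10l1 16.4 FPKM, Rpl3l 23.6 FPKM and Rpl22l1 31.2 FPKM over the 9 libraries. In the table Rps14, Rps19, Rps26 and Rpl22 had no row under those symbols. A row described as an S14-like protein (LOC100911847) had 675 FPKM and a row described as an L22-like protein (LOC100360057) had 360 FPKM, while Rps19l2, which is described as protein S19 and is 1 of the 82 genes, had 470.4 FPKM. Of 5 rows described as S26, 2 averaged at least 1 FPKM, with 7.12 and 6.02 FPKM, and the other 3 were at 0.207 FPKM or below.

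Across the 9 libraries most of these genes kept nearly the same level. The spread of each gene was taken as the SD of its log2 CPM over all libraries, after TMM scaling of library sizes. Its median was 0.0729 over the 82 genes, against 0.188 over the 13702 tested genes with counts in every library and 0.175 over the 631 other genes of at least 100 FPKM. An SD under 0.1 was found for 54 of the 82 genes (65.9%), against 17.6% of tested genes and 23.8% of the other genes of at least 100 FPKM. Rpl8, which lies at the peptidyl transferase centre, was among the steadiest, with 328, 343 and 330.4 CPM in treated, 329.7, 339.9 and 326 CPM in ovariectomized and 331, 339 and 354 CPM in control libraries, an SD of 0.0382. Rpl28, another large-subunit protein, had 437, 413 and 398 CPM in treated, 412, 423 and 405 CPM in ovariectomized and 422, 409.6 and 418.5 CPM in control libraries, an SD of 0.0392. The libraries of the 3 groups interleaved for both genes.

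**Figure D1:**
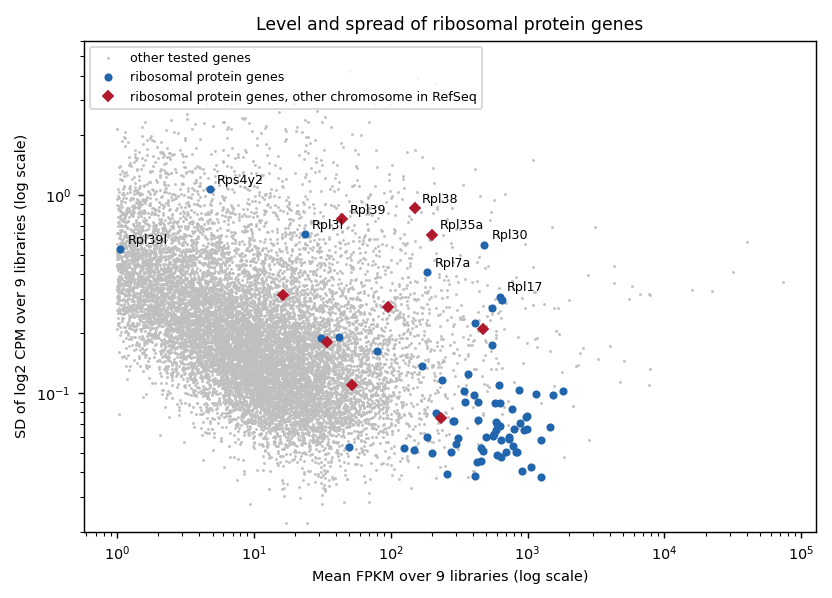
Mean FPKM over 9 libraries (horizontal, log scale) against the SD of log2 CPM over the same libraries (vertical, log scale) for the tested genes with counts in every library. Ribosomal protein genes are large points (blue), with diamonds (red) for the 9 genes that RefSeq places on another chromosome; most points lie at high level and low spread, with Rps4y2, Rpl38 and Rpl39 at the top.

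A minority of rows stood apart. An SD over 0.25 was found for 13 of the 82 genes, led by Rps4y2, Rpl38, Rpl39, Rpl3l and Rpl35a. Of these 13 rows, 9 (69.2%) had at least 1 other row described as the same protein, against 56 of all 82 genes (68.3%). Some paralogs, among them Rps4y2, Rpl3l and Rpl39l, were not matched to other rows and count here as having none. Of the genes that were matched, 56 had another such row and 20 had none, and of the 13 only Rpl17 was matched without one. In all, 5 of the 13 lay on another chromosome than the gene of that symbol in RefSeq GRCr8. Over all members, 9 of the 81 genes with a RefSeq entry were on another chromosome: Rpl9, Rpl35a, Rpl37, Rpl38, Rpl39, Rps10l1, Rps13, Rps19l2 and Rps29. Of the 11 members whose row spans under 700 bases, 8 were among these. The median SD of the 9 genes was 0.273, against 0.0692 for the 72 genes on the matching chromosome. Neither the labels nor the file headers name the genome build of the table, so chromosomes were compared and positions were not.

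In all, 120 rows other than the 82 were described as one of the same proteins, 91 of them with at least 1 FPKM, and they held 20.3% of the summed mean FPKM of the described rows. The share held by the named row varied widely. The row named Rps29, encoding a small zinc-binding protein of the small subunit, held 1.52% of the FPKM described as S29, with 34.2 FPKM, while a row on chromosome 6 (LOC108352650) held 2148 FPKM, more than any of the 82 genes. Rows named Rps10l1, Rpl39 and Rplp2 held 3.34%, 13.7% and 28.8% of the FPKM described as their proteins. When counts of all rows described as 1 protein were added together, the median SD of the 74 summed proteins was 0.0677, against 0.0711 for the named rows of the same 74 genes. The 74 leave out 8 of the 82 genes, among them 4 of the 13 variable ones, Rps4y2, Rpl3l, Rpl39l and Rps10l1. Of the 9 variable genes that were summed, 2 kept an SD over 0.25, Rpl17, which has a single described row, with 0.306 and Rpl38 with 0.251. The sources used here do not say how reads that match several copies were shared between rows, and each gene with such copies is uncertain at the level of its own row.

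**Figure D2:**
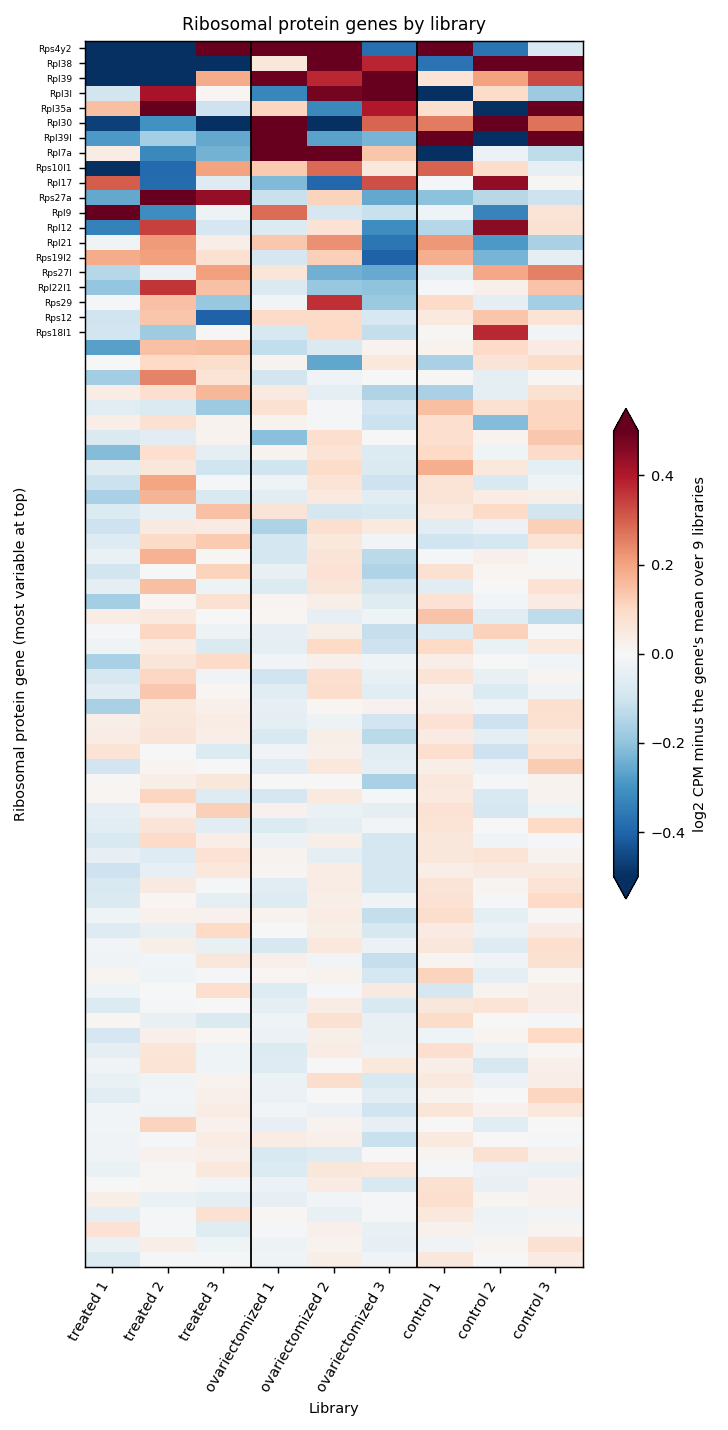
Deviation of log2 CPM from each gene's mean over 9 libraries (colour, cut at 0.5 in either direction) for the 82 ribosomal protein genes, with libraries in columns and the most variable genes, which alone are labelled, at the top. The strong colours sit in the first rows, where Rpl38 is low in all 3 treated libraries, and the pale rows below differ little between groups.

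The summed output of the genes differed between groups by about the spread between libraries. They took 3.61 ± 0.139% of all counts in treated, 3.45 ± 0.0631% in ovariectomized and 3.46 ± 0.188% in control libraries (SD, n = 3 each), with single libraries from 3.27% to 3.70%. Haemoglobin rows differed more between the groups: they held 7.60 ± 1.05% of counts in treated, 9.01 ± 0.928% in ovariectomized and 12.5 ± 3.23% in control libraries. With haemoglobin rows left out of the total, the shares were 3.91 ± 0.183%, 3.80 ± 0.109% and 3.95 ± 0.114% in treated, ovariectomized and control libraries, and the control group was then the highest instead of the treated group. Of summed FPKM the genes held 6.46 ± 0.253% in treated, 6.11 ± 0.0576% in ovariectomized and 5.85 ± 0.527% in control libraries. The ratio of large-subunit to small-subunit FPKM was 1.4985 ± 0.0341, 1.55 ± 0.0366 and 1.56 ± 0.0250 in the same order.

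Small shifts common to many genes differed between libraries of the same group. The median gene deviated from its own mean by -0.052 on the log2 scale in treated library 1, where 64 of 82 genes lay below their mean, and by 0.028 and 0.0096 in treated libraries 2 and 3. In ovariectomized libraries the median deviations were -0.030, 0.029 and -0.060, with 65 genes below their mean in library 3. In control libraries they were 0.052, -0.014 and 0.032, with 61 genes above their mean in library 1. Each group thus held libraries on both sides of 0.

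By function, the base of the stalk, the peptidyl transferase core and the 5S particle are given first. Rplp0 had 1743, 1666 and 1586 CPM in treated, 1643, 1692 and 1598 CPM in ovariectomized and 1765, 1550 and 1747 CPM in control libraries, and the 3 groups overlapped. The peptidyl transferase genes Rpl3, Rpl4, Rpl8 and Rpl10, which surround the site where peptide bonds form, had log2 fold changes of -0.092 to -0.036 in ovariectomized against control femora and 0.0082 to 0.048 in treated against ovariectomized femora. Rpl5 and Rpl11, which with 5S ribosomal RNA form the particle that can bind the p53 regulator Mdm2, differed by -0.059 and -0.078 in ovariectomized against control femora and by -0.072 and -0.075 in treated against control femora. The lowest adjusted p of these genes in any comparison was 0.768 from edgeR. The named rows of the stalk and the exit tunnel held wider values. Of these, the rows named Rpl12, Rplp2 and Rpl39 held 52.3%, 28.8% and 13.7% of the FPKM described as their proteins. The 4 rows described as L12 together held 609, 623 and 528 CPM in ovariectomized and 619, 556 and 660 CPM in control libraries. Of the 4 stalk genes, 2 were within 0.1 on the log2 scale in ovariectomized against control femora, and Rpl12, which binds beside Rplp0 at the stalk base, was the lowest, with 309 ± 40.6 CPM in ovariectomized and 366 ± 77.4 CPM in control libraries (SD, n = 3 each), a log2 fold change of -0.24 ± 0.20 (SE), and overlapping groups. Of 7 genes of the exit tunnel, 5 were within 0.1 in each comparison, and the others reached from -0.23 for Rpl17 to 0.34 for Rpl39 in ovariectomized against control femora and down to -1.07 for Rpl39 in treated against ovariectomized femora. Of all tested genes, 50.5% were within 0.1 in ovariectomized against control, 46.5% in treated against ovariectomized and 41.0% in treated against control femora.

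Rps2, Rps3, Rps9, Rps15 and Rps23, which belong to the decoding site and the messenger RNA path, were all within 0.1 on the log2 scale in every comparison, against the shares of tested genes just given. Rps6, the small-subunit protein phosphorylated by S6 kinase downstream of mTOR, had 477, 485 and 479 CPM in treated, 452, 459 and 437 CPM in ovariectomized and 492, 435 and 492 CPM in control libraries. All treated libraries lay above all ovariectomized ones, and the control libraries covered both. The log2 fold change of treated against ovariectomized femora was 0.097 ± 0.069 (SE), with an adjusted p of 0.945 from edgeR's quasi-likelihood test with Benjamini-Hochberg adjustment. After rows described as S6 were added together it was 0.056, and the treated and ovariectomized libraries overlapped.

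Of 18 measured genes that are mutated in human Diamond-Blackfan anaemia, 16 were within 0.1 on the log2 scale in ovariectomized against control femora, 15 in treated against ovariectomized femora and 16 in treated against control femora. Of all tested genes 50.5%, 46.5% and 41.0% were within 0.1 in the same order. The 18 leave out Rps19 and Rps26, which had no row under those symbols. Rps19l2, described as protein S19, was not among the 18. It had 286 ± 13.8 CPM in treated, 238 ± 42.6 in ovariectomized and 253 ± 36.4 in control libraries (SD, n = 3 each), and its groups overlapped. The row named Rpl35a, 1 of the 18, held 34.4% of the FPKM described as its protein. The 5 genes often used as reference transcripts, Rplp0, Rpl13a, Rps18, Rpl19 and Rpl32, were all within 0.1 in the 3 comparisons. Rpl13a had 492, 536 and 517 CPM in treated, 499, 532 and 489 CPM in ovariectomized and 542, 524 and 544 CPM in control libraries. Rps18 had 776, 777 and 816 CPM in treated, 799, 776 and 725 CPM in ovariectomized and 793, 776 and 828 CPM in control libraries. For both genes the groups overlapped.

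In ovariectomized against control femora, the first question of the design, no ribosomal protein gene passed the threshold: edgeR called 0 of 82 at an adjusted p under 0.05 and 0 of all 13886 genes (0%), and DESeq2 called 0 of the 82 and 59 of all genes (0.425%). At an unadjusted p under 0.05 edgeR gave 1 gene higher, against 3.33% of tested genes, and 0 lower, against 1.72%. The median log2 fold change was -0.041, against -0.0037 for all tested genes, and 15 of 82 genes had a value above 0, against 48.7% of tested genes. Of the 82, 64 (78.0%) were within 0.1 of 0, against 50.5% of tested genes and 57.2% of the other genes of at least 100 FPKM. The direction of this median depended on scaling: with total counts in place of TMM factors it was 0.0047, with 46 genes above 0, while the median of all tested genes was then 0.043. Without ovariectomized library 3 the count of genes above 0 was 24, without control library 1 it was 23, and without ovariectomized library 2 it was 9.

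Groups did not overlap for 2 genes that were higher, against 5.02% of tested genes, and for 6 that were lower, against 3.92%. The 2 higher genes were Rpl7a, a large-subunit protein, and Rpl39, which lines the tunnel through which the nascent chain leaves. Rpl7a had 219, 230.4 and 164 CPM in ovariectomized and 95.2, 146 and 136 CPM in control libraries, a log2 fold change of 0.70 ± 0.19 with an unadjusted p of 0.00563 and an adjusted p of 0.892 from edgeR. Its row held part of the L7a counts, and over the 3 rows described as L7a the fold change was 0.28 and the adjusted p 0.973. The 7 rows described as L39 held 146, 210 and 195 CPM in ovariectomized and 201, 180 and 206 CPM in control libraries. These groups overlapped. The 6 lower genes were Rpl3, Rpl6, Rpl10a, Rpl22l1, Rpl35 and Rplp2, with log2 fold changes between -0.21 and -0.062. Over the rows described as the same protein, the groups overlapped for Rpl10a and stayed apart for Rpl6 and Rplp2. Rpl10a, part of the mobile stalk near the exit site, had 406, 413 and 421 CPM in ovariectomized and 447, 425 and 456 CPM in control libraries, a log2 fold change of -0.098 ± 0.064 with an adjusted p of 0.9998 from edgeR.

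Treated against ovariectomized femora were compared next. Again edgeR called 0 of 82 genes and 0 of 13886 (0%), with 0 genes higher at an unadjusted p under 0.05, against 2.12% of tested genes, and 3 lower, against 3.08%. DESeq2 called 1 of the 82 genes, Rpl38, and 35 of all genes (0.252%). The median log2 fold change was 0.020, against -0.0042 for all tested genes, and 55 of 82 genes lay above 0, against 49% of tested genes. With total counts the median was 0.061, with 69 genes above 0 and a median of all tested genes of 0.037. Without treated library 2 the median changed sign to -0.0052, with 38 genes above 0.

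The 3 genes with an unadjusted p under 0.05 were Rpl38, Rpl7a and Rpl39, all lower, and the same 3 were the ones whose treated libraries all lay below the ovariectomized ones, against 6.63% of tested genes. Rpl7a had 153, 119 and 126 CPM in treated and 219, 230.4 and 164 CPM in ovariectomized libraries, a log2 fold change of -0.62 ± 0.19 with an adjusted p of 0.929 from edgeR, and -0.27 over its summed rows. Rpl26, Rps3a and Rps6 were the 3 genes whose treated libraries all lay above the ovariectomized ones, against 5.75% of tested genes. Their log2 fold changes were 0.10, 0.084 and 0.097. Over the summed rows of each protein the groups overlapped for Rps3a and Rps6. For Rpl26 the sum could change little, since its named row held 99.8% of the FPKM described as its protein, and the groups stayed apart. Rps27a, which is made as a fusion with ubiquitin, had 264, 454 and 428 CPM in treated and 292, 341 and 264 CPM in ovariectomized libraries. Its log2 fold change was 0.35 ± 0.19 with an adjusted p of 0.931 from edgeR, and 0.048 over its summed rows.

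The third comparison, treated against control femora, shares its treated libraries with the second and its control libraries with the first, so its values are given beside theirs and are not independent of them. In it edgeR called 0 of 82 genes and 0 of 13886 (0%). DESeq2 called 1 of the 82, Rpl38 again, and 153 of all genes (1.1%). The median log2 fold change was -0.020, against -6.02e-06 for all tested genes, and 31 of 82 genes lay above 0, against 50% of tested genes. This direction also depended on scaling, since with total counts the median was 0.066, with 66 genes above 0, and that of all tested genes 0.087. Without treated library 1 the median was 0.00014 and 41 genes lay above 0. At an unadjusted p under 0.05 edgeR gave 0 genes higher, against 4.05% of tested genes, and 3 lower, against 4.75%, and these were Rpl38, Rpl29 and Rpl30.

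For Rpl29, adding described rows together could change nothing, since the other row described as L29 averaged 0.0001 FPKM, the value given for 0 counts. This large-subunit protein, whose loss in mice gives small animals with fragile bones, had 393, 389 and 361 CPM in treated, 431, 407 and 383 CPM in ovariectomized and 454, 431 and 441 CPM in control libraries. All treated libraries lay below all control libraries, and the ovariectomized libraries overlapped the treated ones. The log2 fold change of treated against control femora was -0.21 ± 0.070, with an unadjusted p of 0.0151 and an adjusted p of 0.489 from edgeR and 0.133 from DESeq2. In treated against ovariectomized femora it was -0.096 ± 0.070, and in ovariectomized against control femora -0.12 ± 0.070. Groups did not overlap for 6 genes that were lower in treated than in control femora, against 6.78% of tested genes, among them Rpl11, Rpl29, Rpl30 and Rpl38. No gene had all treated libraries above all control ones, against 6.34% of tested genes.

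**Figure D3:**
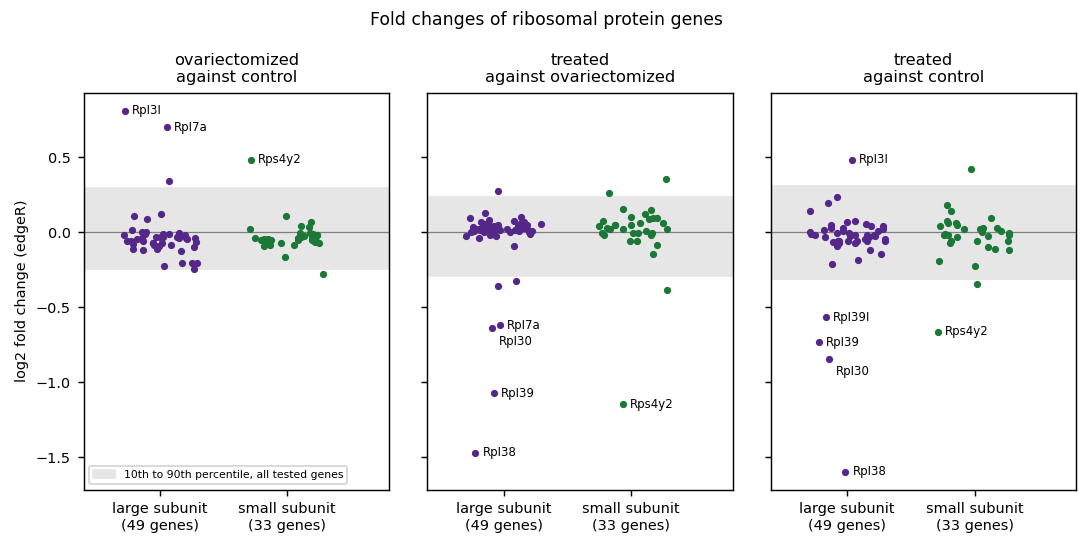
Fitted log2 fold changes of the 82 ribosomal protein genes in the 3 comparisons, large subunit at left and small subunit at right in each panel, with the 10th to 90th percentile of all tested genes in grey. Most points lie near 0 inside the grey band, and Rpl38 at -1.47 and -1.60 is the lowest in both comparisons of treated femora.

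Rpl38 had the lowest fold changes of the 82 genes in both comparisons of treated femora. The protein is best known from mice with a short-tail mutation, in which translation of Hox transcripts and the patterning of the axial skeleton are altered. Its row (chromosome 8, 63119395 to 63119607 in the table's coordinates, 213 bases) had 14.0, 13.9 and 16.8 CPM in treated, 30.3, 56.0 and 37.9 CPM in ovariectomized and 22.5, 63.5 and 49.5 CPM in control libraries. The 3 treated libraries were close together and below all others, and the other groups overlapped. The log2 fold change was -1.47 ± 0.36 in treated against ovariectomized femora, with an adjusted p of 0.929 from edgeR and 0.0166 from DESeq2. In treated against control femora it was -1.60 ± 0.37, with an adjusted p of 0.469 from edgeR and 0.00190 from DESeq2.

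The row named Rpl38 was 1 of 5 rows described as L38, each on its own chromosome and spanning 213 to 303 bases. The named row held 38.0% of their FPKM, with 150.4 FPKM, and the other 4 held 54.6 to 69.5 FPKM each. Without the named row, the other 4 together held more CPM in every treated than in every ovariectomized library. Treated and control libraries overlapped for these 4. Over the 5 rows together there were 79.6, 89.5 and 95.4 CPM in treated, 79.6, 103 and 74.6 CPM in ovariectomized and 129, 109 and 90.5 CPM in control libraries, and all groups overlapped. The summed log2 fold change was 0.038 in treated against ovariectomized femora, with adjusted p values of 0.986 from edgeR and 0.999 from DESeq2, so the call of DESeq2 was lost and the sign turned. In treated against control femora it was -0.31, with adjusted p values of 0.610 from edgeR and 0.536 from DESeq2. In ovariectomized against control femora it was -0.35, with an adjusted p of 0.973 from edgeR.

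Rpl39 and Rpl30 also differed less between groups once rows were added together. The row named Rpl39 had 8.72, 4.14 and 15.6 CPM in treated, 19.3, 17.8 and 22.8 CPM in ovariectomized and 14.4, 15.8 and 17.2 CPM in control libraries. Its log2 fold change was -1.07 ± 0.39 in treated against ovariectomized femora (adjusted p of 0.929 from edgeR), and over 7 rows described as L39, which held 146 to 209.9 CPM, it was -0.018. The row named Rpl30, a large-subunit protein, had 120.2, 135 and 111 CPM in treated, 276, 92.5 and 203 CPM in ovariectomized and 199, 258 and 200.3 CPM in control libraries. Its log2 fold change in treated against control femora was -0.84 ± 0.33 (adjusted p of 0.523 from edgeR), and 0.15 over 7 rows. Those 7 rows held 340, 363 and 371 CPM in treated and 336, 294 and 337 CPM in control libraries. In the sum all treated libraries thus lay above all control ones, whereas in the named row they lay below. Rpl35a, mutated in some patients with Diamond-Blackfan anaemia, ranged from 23.5 to 100.7 CPM within the control group alone, and over 4 rows from 197 to 229 CPM in that group.

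**Figure D4:**
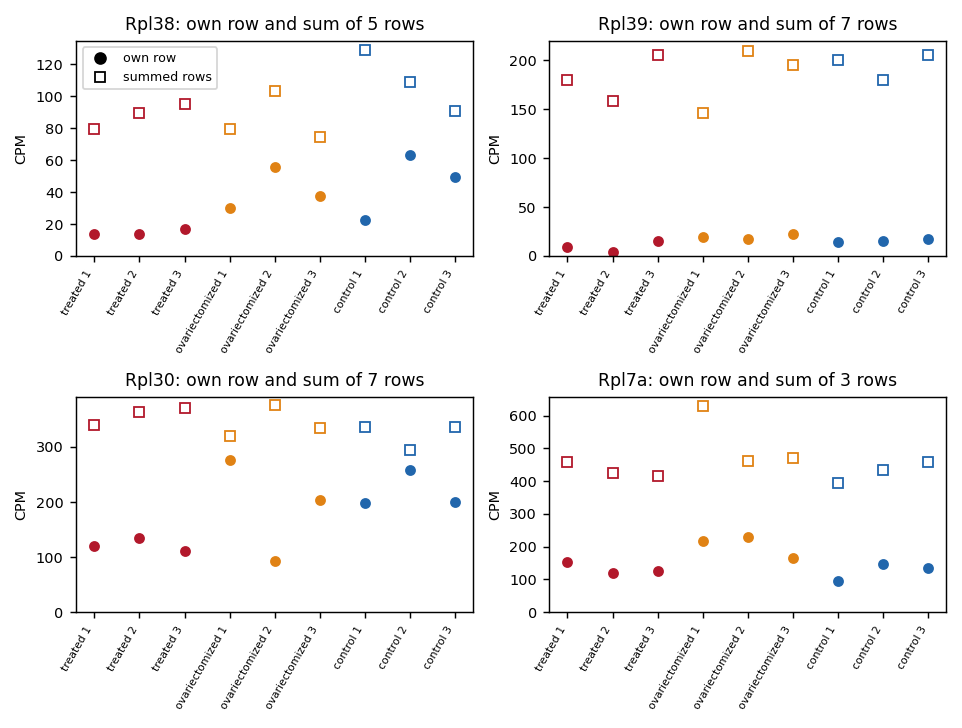
CPM of the named row (filled circles) and of all rows described as the same protein (open squares) in each library for Rpl38, Rpl39, Rpl30 and Rpl7a, with treated libraries at left, ovariectomized in the middle and control at right. For Rpl38 the named row is at 13.9 to 16.8 CPM in treated libraries while the 5 rows together hold 79.6 to 95.4 CPM there.

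Rpl17, which lies at the tunnel exit, had an SD over 0.25 with no other described row. Among the 13 variable genes, the paralogs Rps4y2, Rpl3l and Rpl39l were not matched to other rows. Rpl17 had 529, 328 and 410 CPM in treated, 368, 326 and 536 CPM in ovariectomized and 426, 584 and 430.0 CPM in control libraries. High and low libraries occurred in each group, and the log2 fold changes were between -0.23 and 0.043.

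Paralogs are given beside the named rows of their partners, and some varied more and others as little or less. The SD of log2 CPM was 0.633 for Rpl3l and 0.0502 for Rpl3, and 0.0532 for Rpl7l1 and 0.0516 for Rpl7. For Rpl39l it was 0.532, against 0.752 for the row named Rpl39 and 0.184 over the 7 rows described as L39. Rpl3l, which takes the place of Rpl3 in striated muscle ribosomes, had 28.8, 40.8 and 30.8 CPM in treated, 24.4, 42.6 and 58.7 CPM in ovariectomized and 12.2, 32.6 and 27.0 CPM in control libraries. Rpl3 had 995, 992 and 1033 CPM in treated, 996, 986 and 938 CPM in ovariectomized and 1049, 1022 and 1043 CPM in control libraries. The lowest library for Rpl3l was control library 1 and the highest was ovariectomized library 3, and the groups overlapped. Its log2 fold change in ovariectomized against control femora was 0.81 ± 0.40, with an adjusted p of 0.977 from edgeR. The summed CPM of 10 skeletal muscle markers, from genes such as Acta1 and Ckm, was 1499, 1021 and 2068 in treated, 1397, 3138 and 5936 in ovariectomized and 414, 938 and 1271 in control libraries, with its lowest and highest values in the same 2 libraries. The part of muscle tissue in the values of Rpl3l was not tested.

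**Figure D5:**
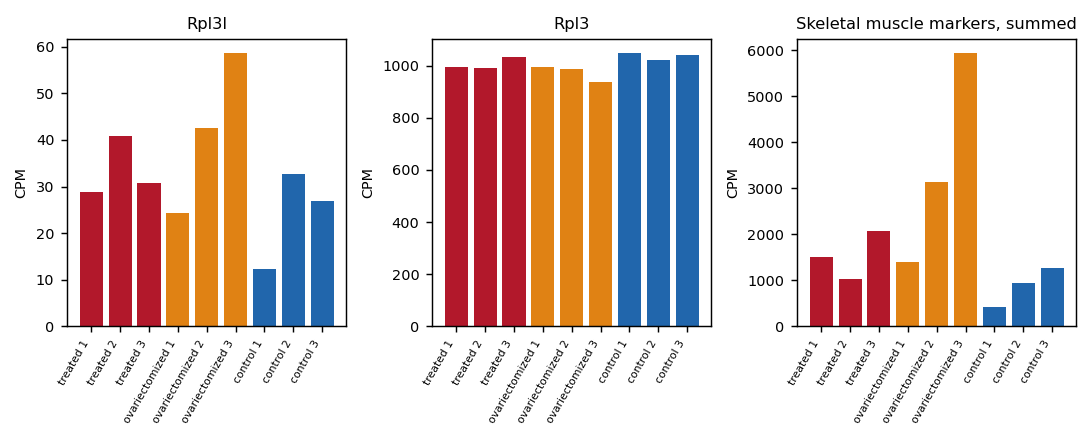
CPM of Rpl3l, of its partner Rpl3 and of 10 summed skeletal muscle markers in each library (bars from 0), treated at left, ovariectomized in the middle and control at right. Rpl3l and the muscle markers are both lowest in control library 1 and highest in ovariectomized library 3, while Rpl3 is at 938 to 1049 CPM throughout.

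Rps27l, a paralog of Rps27 that is known as a p53 target, had 27.6, 29.9 and 35.2 CPM in treated, 31.8, 25.8 and 25.6 CPM in ovariectomized and 29.6, 34.9 and 36.4 CPM in control libraries. Its log2 fold change in ovariectomized against control femora was -0.28 ± 0.13, with an adjusted p of 0.974 from edgeR. Rps27 itself ranged from 316 to 375 CPM over the 9 libraries. Rpl22l1, the partner of Rpl22, had 15.8, 23.2 and 20.04 CPM in treated, 17.2, 15.9 and 15.8 CPM in ovariectomized and 18.0, 18.4 and 20.005 CPM in control libraries. All ovariectomized libraries lay below all control ones, with a log2 fold change of -0.21 ± 0.14, and treated against ovariectomized femora differed by 0.27 ± 0.14, with adjusted p values of 0.9998 and 0.929 from edgeR. Rpl7l1, a paralog of Rpl7, was steady at 35.9 to 40.4 CPM. Rps4y2, the partner of Rps4x, had the largest spread of the 82 genes, with 1.61, 1.11 and 6.07 CPM in treated, 11.3, 5.34 and 2.89 CPM in ovariectomized and 7.48, 2.91 and 3.56 CPM in control libraries, and its groups overlapped.

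Genes that share the ribosome or its regulation were described next, from lists given as counts. Rack1, a scaffold protein on the small subunit, had an SD of log2 CPM of 0.0404, close to the steadiest ribosomal protein genes. Fau, which encodes a ubiquitin-like protein fused to a small-subunit protein, had 25.9, 25.1 and 27.0 CPM in treated, 47.2, 147 and 19.4 CPM in ovariectomized and 29.6, 42.7 and 54.4 CPM in control libraries. Its row spans 402 bases on chromosome 6, and another row described as S30 had 30.8 FPKM.

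Of 21 measured genes for elongation factors and other TOP transcripts, 3 had a log2 fold change above 0 in ovariectomized against control femora, 8 in treated against ovariectomized and 2 in treated against control femora. The medians were -0.054, -0.022 and -0.049, and edgeR called none in any comparison. DESeq2 called 0, 0 and 1 of the 21 genes, against 0.425%, 0.252% and 1.1% of tested genes. Of all tested genes 48.7%, 49% and 50% were above 0. These counts and medians were taken with TMM factors alone. With total counts, under which this list was not counted, the ribosomal protein medians turned positive in each comparison with control femora. At an unadjusted p under 0.05 edgeR gave 0, 1 and 1 of the 21 genes, against 5.05%, 5.2% and 8.81% of tested genes. Pabpc1, the poly(A)-binding protein, had 1443, 1403 and 1411 CPM in treated, 1529, 1765 and 1639 CPM in ovariectomized and 1650.0, 1767 and 1670.0 CPM in control libraries. The treated libraries lay below all others, with a log2 fold change of -0.26 ± 0.081 in treated against control femora and adjusted p values of 0.485 from edgeR and 0.0468 from DESeq2.

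Ribosome assembly factors process ribosomal RNA and join it with the ribosomal proteins in the nucleolus. Of 41 measured genes, 34 had a log2 fold change below 0 in ovariectomized against control femora, 26 in treated against ovariectomized femora and 34 in treated against control femora, with medians of -0.059, -0.026 and -0.095. Of all 13886 tested genes, 7126, 7087 and 6943 were below 0 in the same order. These counts and medians were taken with TMM factors alone. With total counts, under which this list was not counted, the ribosomal protein medians turned positive in each comparison with control femora. In treated against control femora 50% of all tested genes and 51 of the 82 ribosomal protein genes were below 0 with TMM factors. At an unadjusted p under 0.05, 7 of the 41 were lower and 0 higher, against 4.75% and 4.05% of tested genes, while edgeR and DESeq2 each called 0 after adjustment. Nop2, an RNA methyltransferase of the nucleolus, had 32.1, 34.6 and 34.6 CPM in treated, 40.8, 36.0 and 39.9 CPM in ovariectomized and 42.9, 38.8 and 43.2 CPM in control libraries, a log2 fold change of -0.30 ± 0.079 in treated against control femora with an adjusted p of 0.473 from edgeR. Bysl, needed for small-subunit maturation, had 23.9, 25.4 and 23.9 CPM in treated and 27.1, 31.7 and 33.2 CPM in control libraries, a log2 fold change of -0.33 ± 0.093 with an adjusted p of 0.473 from edgeR. For both genes the treated libraries lay below all control libraries.

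Of 20 measured genes of mTOR, Myc and stress signalling, 11 lay above 0 in ovariectomized against control femora, 10 in treated against ovariectomized femora and 9 in treated against control femora, and edgeR and DESeq2 called none, with 0, 0 and 1 by edgeR at an unadjusted p under 0.05, against the same shares of tested genes. Among 9 measured p53 targets, Phlda3, an inhibitor of Akt, had 28.1, 25.6 and 22.4 CPM in ovariectomized and 11.3, 17.0 and 7.41 CPM in control libraries, a log2 fold change of 1.09 ± 0.29 with adjusted p values of 0.892 from edgeR and 0.0585 from DESeq2. The other 8 had unadjusted p values over 0.05 in that comparison. For the 74 measured mitochondrial ribosomal protein genes, which build the separate ribosome of mitochondria, 46, 26 and 30 lay above 0 in the same order of comparisons, with medians of 0.032, -0.034 and -0.023. Of all tested genes 48.7%, 49% and 50% lay above 0. The lists of this paragraph were also counted with TMM factors alone. At an unadjusted p under 0.05, edgeR gave 1, 5 and 1 of the 74, against 5.05%, 5.2% and 8.81% of tested genes, and neither edgeR nor DESeq2 called any after adjustment.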

How the data were processed

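Femoral poly(A) RNA of 9 libraries, 3 per group, was used. The deposited table holds whole-number counts and FPKM values per gene, per the file headers. The authors used fastp, HISAT2 and StringTie, per the submitters' processing notes, without versions. The sources used here name neither the genome build nor how the deposited counts were made. Where the count is 0 the deposited FPKM is 0.0001.

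The 13886 genes averaging 1 FPKM or more were tested in R 4.3.3 with edgeR 4.0.16: TMM factors, 1 quasi-likelihood fit over the 9 libraries and 3 contrasts. P-values were adjusted by Benjamini-Hochberg over all genes, with a threshold of 0.05. The common biological coefficient of variation was 0.262. SE is the fold change divided by the square root of F. CPM values use TMM library sizes. Alternatives used DESeq2 1.42.0, limma 3.58.1 on log2(FPKM + 1) and on log2(FPKM + 0.1), other scalings and filters, and each library left out in turn. Scripts were tested on simulated data.

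Named genes were the 4 higher and 4 lower with the smallest p in each comparison, the 5 highest, 5 lowest and 5 most variable, and fixed paralog and reference genes; others were chosen after their values were seen, as were the groups by function. Rows were matched to proteins by the table's descriptions. The members and lists were chosen with earlier results of these data known. No column of per-library values was left out. Some genes that the naming rule covers are not reported here.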

Additional observations from a re-analysis of the deposited data

How the results depend on the processing

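Depth limits Rpl39l, with 18 to 55 counts per library, and the number of libraries limits every comparison. Values follow in the order of ovariectomized against control femora, treated against ovariectomized femora and treated against control femora. DESeq2 called 59, 35 and 153 genes, and 56, 32 and 151 after rows described as 1 protein were summed. Fits of the compared pair of groups alone called 2, 1 and 1. Among ribosomal protein genes DESeq2 called 0, 1 and 1, in each case Rpl38, and 0 in each after summing. The median log2 fold change was 0.0047, 0.061 and 0.066 with total counts, and 0.0036, 0.061 and 0.066 with limma on log2(FPKM + 1) and on log2(FPKM + 0.1), with 46, 45 and 45 genes above 0 under these 3 settings in ovariectomized against control femora and 66, 66 and 66 in treated against control femora. The cause was not tested. The share of counts was 3.91%, 3.80% and 3.95% without haemoglobin rows and 6.46%, 6.11% and 5.85% of summed FPKM in treated, ovariectomized and control libraries, and 3.55% in ovariectomized libraries with all rows of a symbol summed. Leaving out 1 library gave 0 to 4, 0 to 2 and 0 to 3 genes called, 0 ribosomal protein genes called in each comparison, medians of -0.071 to -0.020, -0.0052 to 0.047 and -0.039 to 0.00014, and 9 to 24, 38 to 67 and 24 to 41 genes above 0. Libraries of the same number had correlated deviations between -0.132 and 0.184, so the numbers were not taken as pairs, and a fit with the replicate number as a block called 0 genes in each comparison, with medians of -0.042, 0.020 and -0.020. Of 99 values of named genes, 57 changed sign under at least 1 of 22 alternatives, and none of these was called by edgeR.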
